A study of Rattus norvegicus with 15 samples.

Results

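The hexokinase isoforms Hk1, Hk2 and Hk3 were followed in the small intestine of Goto-Kakizaki (GK) rats after Roux-en-Y gastric bypass (RYGB) surgery. All noncontrol probes whose gene name was Hk1, Hk2 or Hk3 were taken, without regard to their values, and this gave 3 of 16472 named genes and 4 of 41012 probes: 2 for Hk1, 1 for Hk2 and 1 for Hk3. All 4 were well above background on all 15 arrays and were among the 27892 probes tested. Hk1 was higher in the Roux limb (RL) after RYGB than in either control group by the brighter of its probes, 1.81-fold over GK-Sham-PF and 1.67-fold over Wistar. Hk2 was higher than in Wistar rats, a call that 7 of 14 alternative settings kept, and its difference from GK-Sham-PF did not pass the test. Hk3 passed the test in no comparison, but its change after RYGB differed from that of Hk1.

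Hexokinases phosphorylate glucose to glucose-6-phosphate, which keeps the sugar inside the cell and commits it to glycolysis, the pentose phosphate pathway, glycogen or amino sugars. Hexokinase 1 is the broadly expressed form and hexokinase 2 the form typical of insulin-responsive muscle and fat, and both can bind the outer mitochondrial membrane. Hexokinase 3 is known mainly from white blood cells, and all of these isoforms have a high affinity for glucose and are inhibited by their product. In the small intestine, glucose reaches these enzymes from the lumen during absorption and from the blood in the fasted state.

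The probes are 60-base DNA oligos, and which transcript each one reads is set by its sequence. The first Hk1 probe starts at base 2686 of its transcript and the second at base 3570, by the annotation in the array files, which gives no genome position for either. The Hk2 probe starts at base 2804 of its transcript and lies at chr4:116926495-116928002 of the rn4 build on the minus strand. This span of 1508 bases for 60 bases of probe means that the probe crosses an exon junction. The Hk3 probe starts at base 2851 and lies at chr17:15668934-15668993 of rn4 on the plus strand, without a gap. Laid over each other without gaps, the Hk1 probe at base 2686 and the Hk2 probe shared 32 of 48 overlapping bases (66.7%), against 35 to 38.6% for every other pair. These sequences are shown because they are the closest pair among the isoforms, with the 16 overlapping bases that differ in capitals:
Hk1 probe at base 2686: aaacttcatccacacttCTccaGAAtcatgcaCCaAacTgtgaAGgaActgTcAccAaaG
Hk2 probe at base 2804: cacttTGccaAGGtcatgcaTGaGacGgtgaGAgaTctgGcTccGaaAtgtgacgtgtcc
The first 30 bases of the other probes are shown, in lower case throughout, since they read the Hk1 transcript nearer its 3′ end and Hk3:
Hk1 probe at base 3570: aaacaacaccatcactggaatttccatcgc
Hk3 probe at base 2851: ttgaggaaaatctccaaagagcaattggga
Whether a probe also binds the transcript of another isoform was not tested.

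Total RNA came from 15 male rats, 1 Agilent array each and 5 rats in each group. Wistar rats were nondiabetic and had no operation. GK rats, a nonobese strain with spontaneous type 2 diabetes, were either sham-operated and pair-fed (GK-Sham-PF), with the jejunum cut 16 cm from the ligament of Treitz and rejoined, or had RYGB with an RL of 30 cm (GK-S-30). Surgery was at 16 wk of age and tissue was taken at 14 wk postoperation after an overnight fast, from the RL near its junction with the stomach in GK-S-30 rats and from the matching segment of jejunum in the others. Strain and operation both separate GK-S-30 from Wistar rats, and only GK-Sham-PF rats share the strain. GK-Sham-PF and Wistar rats differed at once in strain with its diabetes, sham operation and pair-feeding, which cannot be told apart.

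Values below are log2 of the processed signal, quantile-normalized between arrays, in arbitrary units, so that a difference of 1 is a doubling. Since the signal of a probe depends on its sequence, the level of each probe was compared only with itself across groups. No isoform was ranked against another by its level, while changes between groups were also compared between probes. Per array, 66.7 to 74.8% of probes were called well above background by the scanner software. Before normalization the arrays of Wistar replicate 3 and of GK-Sham-PF replicate 5 were the dimmest, with 75th percentiles of signal of 207 and 208 against up to 357 elsewhere. The arrays lay on 4 slides: slide A carried 4 Wistar rats, slide B 3 of GK-Sham-PF with 1 Wistar, slide C 2 rats of each GK group, and slide D the other 3 of GK-S-30. No slide held both GK-S-30 and Wistar. The piece of intestine was taken whole, and a lower number of cells of a type and less RNA in each of them cannot be told apart in it.

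**Figure D1:**
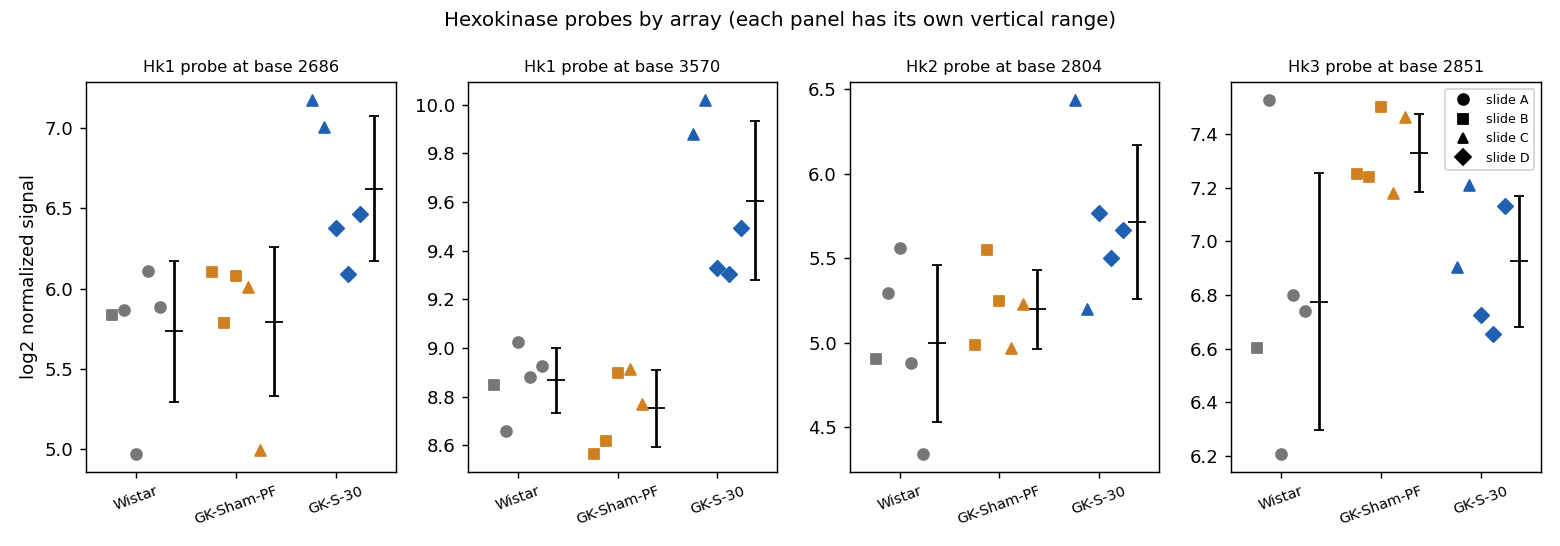
Log2 normalized signal (vertical axis, own range in each panel) of the 4 hexokinase probes on each of the 15 arrays, by group, with replicates 1 to 5 from left to right and marker shapes for the slides. The bar beside each group is its mean with SD (n = 5). All GK-S-30 arrays lie above both control groups for the Hk1 probe at base 3570, and the 2 GK-S-30 arrays of slide C are the highest for both Hk1 probes.

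Hk1 was measured with its brighter probe, the one at base 3570, at 9.88, 10.02, 9.33, 9.31 and 9.49 in GK-S-30 replicates 1 to 5. It was at 8.56, 8.62, 8.90, 8.91 and 8.77 in GK-Sham-PF, and at 8.85, 8.66, 9.02, 8.88 and 8.93 in Wistar. Each GK-S-30 array was above every array of the other groups, while the GK-Sham-PF and Wistar ranges overlapped. The group means were 9.60 ± 0.33, 8.75 ± 0.16 and 8.87 ± 0.13 (SD, n = 5). GK-S-30 exceeded GK-Sham-PF by 0.85 (SE 0.14, 95% interval 0.55 to 1.15, limma adjusted p = 0.002272 over all 27892 probes). Between these groups 1 of the 4 hexokinase probes passed, against 6.7% of all probes tested, 3.9% upward, and groups were as fully separated, upward, in 4.22% of probes. GK-S-30 exceeded Wistar by 0.74 (SE 0.14, adjusted p = 0.001568), with the arrays as fully separated, upward, in 8.72% of all probes tested. GK-Sham-PF and Wistar rats, next to each other in the order of levels, did not pass the test (-0.11, 95% interval -0.42 to 0.19, adjusted p = 0.7533). The difference from GK-Sham-PF passed in all 14 alternative settings that were tested and without any single array. The 14, here and for Hk2, include Tukey's comparison at an unadjusted threshold. They also include settings close to the main fit and the fit without both dimmer arrays, chosen after the data were seen. The difference from Wistar passed in 13 of 14, the exception being the fit with the slide as a block (0.95, adjusted p = 0.09432).

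The other Hk1 probe, at base 2686, gave 7.17, 7.0, 6.38, 6.09 and 6.46 in GK-S-30, and 6.11, 5.78, 6.08, 6.01 and 4.99 in GK-Sham-PF. In Wistar it gave 5.84, 5.86, 4.97, 6.11 and 5.88. GK-S-30 replicate 4 overlapped the top of both control groups, and the lowest value of each control group came from its dimmer array. GK-S-30 was over GK-Sham-PF by 0.83 (SE 0.26, 95% interval 0.27 to 1.39), without passing (adjusted p = 0.07381). With normexp background correction it was 0.40 (adjusted p = 0.06093), against 0.71 at base 3570, and 0.43 over Wistar (adjusted p = 0.01894). It passed without Wistar replicate 3 (0.83, adjusted p = 0.03842) and without GK-S-30 replicate 4 (0.96, adjusted p = 0.04724). Against Wistar it was 0.89 (SE 0.26, adjusted p = 0.02331), which was lost without Wistar replicate 3 (0.70, adjusted p = 0.05346), without GK-S-30 replicate 1 (0.75, adjusted p = 0.06179) or without GK-S-30 replicate 2 (0.80, adjusted p = 0.05624). With both dimmer arrays left out it was 0.70 and passed (adjusted p = 0.01591). GK-Sham-PF and Wistar were 0.06 apart (95% interval -0.50 to 0.62).

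Within GK-S-30, both Hk1 probes were higher on the 2 arrays of slide C than on the 3 of slide D, with means of 9.95 and 9.38 for the probe at base 3570 and 7.09 and 6.31 for the probe at base 2686. The GK-S-30 arrays of slide D, at 9.31 to 9.49 for the probe at base 3570, were still above all GK-Sham-PF arrays. Slide C, the one slide with both GK groups side by side (2 arrays each), gave differences of 1.11 at base 3570 and 1.59 at base 2686, without a test. With the slide as a block the difference at base 3570 was the same 1.11 (limma adjusted p = 0.008058), since no other slide held both GK groups. It is no separate estimate, and the other arrays enter only its spread.

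Hk2 gave 6.44, 5.20, 5.77, 5.50 and 5.67 in GK-S-30, 4.99, 5.55, 5.25, 4.97 and 5.23 in GK-Sham-PF, and 4.90, 5.29, 5.56, 4.88 and 4.34 in Wistar. The ranges of all groups overlapped, and GK-S-30 replicate 1 was the highest of all arrays and Wistar replicate 5 the lowest. The means were 5.72 ± 0.46, 5.20 ± 0.24 and 5.00 ± 0.46 (SD, n = 5). GK-S-30 differed from GK-Sham-PF by 0.52 (SE 0.23, 95% interval 0.02 to 1.02), without passing (limma adjusted p = 0.2206), and by 0.21 with normexp background correction (adjusted p = 0.2215). It exceeded Wistar by 0.72, or 1.65-fold (SE 0.23, adjusted p = 0.03691). Between GK-S-30 and Wistar 3 of the 4 hexokinase probes passed, all upward, in a comparison in which 22.8% of all probes tested passed, 10.9% upward. The Hk2 call held in 7 of 14 alternative settings and was lost without any one of 6 arrays, where the smallest difference was 0.54 (adjusted p = 0.09169), without GK-S-30 replicate 1. These 6 were Wistar replicates 1, 4 and 5 and GK-S-30 replicates 1, 3 and 5. GK-Sham-PF and Wistar were 0.20 apart (95% interval -0.30 to 0.70, adjusted p = 0.7347).

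Hk3 gave 6.91, 7.21, 6.73, 6.65 and 7.13 in GK-S-30, 7.25, 7.24, 7.50, 7.18 and 7.46 in GK-Sham-PF, and 6.60, 7.53, 6.21, 6.80 and 6.74 in Wistar. GK-Sham-PF was the tightest group, 4 of the 5 GK-S-30 arrays lay under its lowest value, and the Wistar arrays ranged from the lowest to the highest value of the whole series. The order of the means was 7.33 ± 0.15 in GK-Sham-PF, 6.93 ± 0.24 in GK-S-30 and 6.78 ± 0.48 in Wistar (SD, n = 5), and no neighbours in it passed the test. GK-S-30 was 0.40 under GK-Sham-PF (-0.40, 95% interval -0.81 to 0.01, limma adjusted p = 0.2516). GK-Sham-PF was 0.55 over Wistar (95% interval 0.14 to 0.96, adjusted p = 0.1059), and this passed without Wistar replicate 2, the highest array (0.74, adjusted p = 0.00638). Between GK-Sham-PF and Wistar 0 of the 4 hexokinase probes passed, against 7.83% of all probes tested. At an unadjusted limma p under 0.05 it was 1 of 4, Hk3, against 18.9% of all probes, and 1 of 4 with Tukey's comparison at its unadjusted threshold (0 after Benjamini-Hochberg adjustment).

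**Figure D2:**
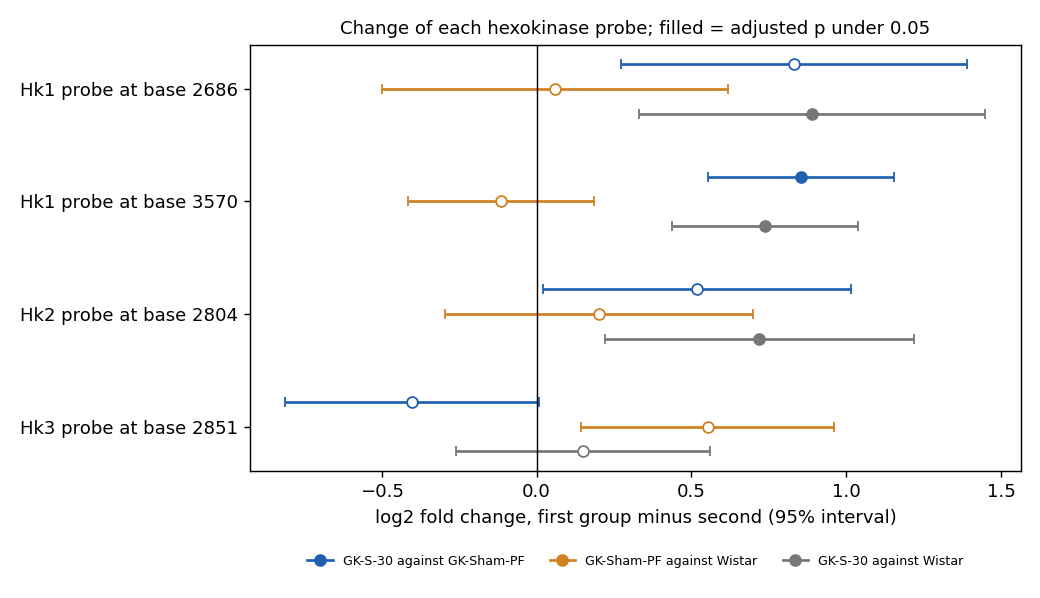
Log2 fold change of each hexokinase probe between groups (horizontal axis, first group minus second) with its 95% interval from the limma fit over 15 arrays, filled where the adjusted p was under 0.05. The 3 changes over Wistar of the Hk1 and Hk2 probes and the change over GK-Sham-PF of the Hk1 probe at base 3570 are filled, and the lowest interval is that of Hk3 in GK-S-30 over GK-Sham-PF, -0.81 to 0.01.

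Whether the isoforms changed unequally was asked within arrays, where the difference between a pair of probes was compared between groups by a two-sided exact permutation test. The 6 pairs of probes and 3 comparisons made 18 tests, and the smallest p that 5 against 5 arrays allow is 0.007937. From GK-Sham-PF to GK-S-30, the change of Hk1 exceeded that of Hk3 by 1.25 at base 3570 (95% interval 0.96 to 1.55, exact p = 0.007937, 0.04762 after adjustment over the 18 tests). At base 2686 it exceeded it by 1.23 (0.56 to 1.91, exact p = 0.007937, adjusted 0.04762). In both, the arrays of the groups did not overlap. The change of Hk2 exceeded that of Hk3 by 0.92 (0.28 to 1.56, exact p = 0.01587), which did not pass after adjustment (0.07141).

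A difference between Hk1 and Hk2 in their change after RYGB was not detected, with 0.33 at base 3570 (95% interval -0.31 to 0.98, exact permutation p = 0.3016) and 0.31 at base 2686 (-0.48 to 1.11, exact permutation p = 0.3968). These intervals leave room for a difference of about the size of the Hk1 change itself. The Hk1 probes differed from each other in their change by -0.02 (-0.56 to 0.52). Against Wistar, Hk1 at base 2686 exceeded Hk3 by 0.74 (0.18 to 1.30, exact p = 0.007937, adjusted 0.04762), and Hk1 at base 3570 by 0.59 (-0.08 to 1.26, exact p = 0.06349). Between GK-Sham-PF and Wistar, Hk1 at base 3570 moved by -0.67 relative to Hk3 (-1.32 to -0.02, exact p = 0.04762, adjusted 0.1714). In all, 5 of the 18 tests passed unadjusted and 3 after adjustment. These 3 all had the smallest p that the arrays allow, and all used the same Hk3 probe.

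**Figure D3:**
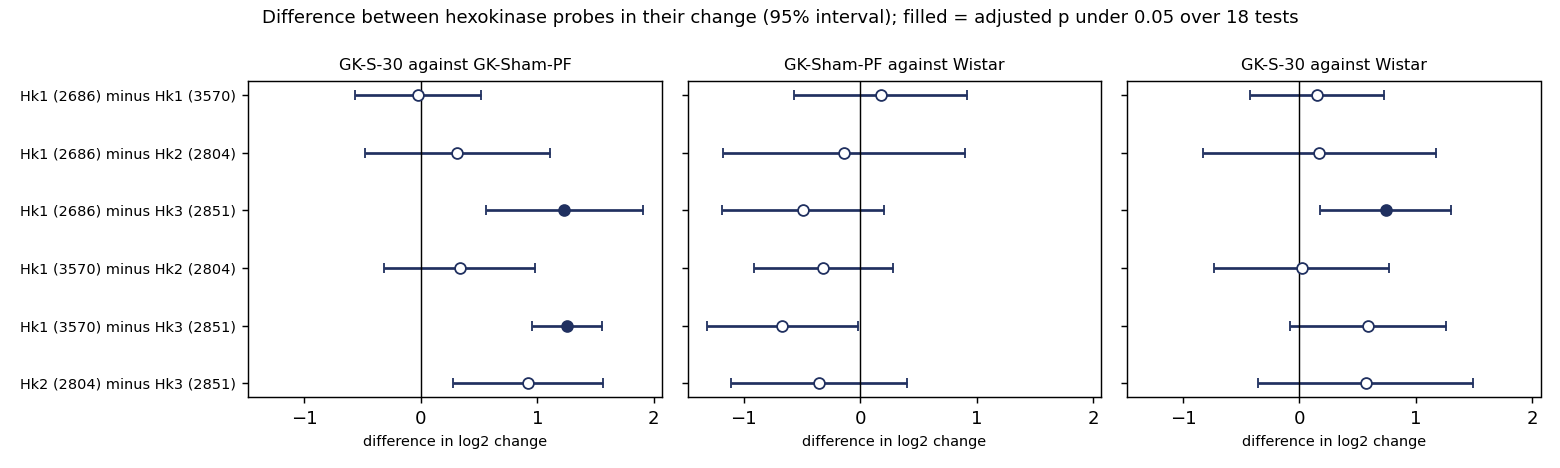
Difference between pairs of hexokinase probes in their log2 change (horizontal axis) for each comparison, with the 95% interval over the 5 and 5 arrays, filled where the exact permutation p adjusted over 18 tests was under 0.05. The base at which a probe starts stands in brackets, and the 3 filled points are Hk1 minus Hk3.

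Over the 15 arrays the Hk1 probes had a Pearson r of 0.73 with each other, and 0.35 once the mean of each group was taken off. Hk1 at base 3570 and Hk2 had an r of 0.52, and -0.01 with group means removed. Hk1 at base 2686 had an r of 0.36 with Hk2 (-0.17 with group means removed). Hk3 had an r of -0.20 with Hk1 at base 3570 and -0.05 with Hk2 (0.02 and -0.10 with group means removed). With Hk1 at base 2686 it had an r of 0.12, and 0.38 with group means removed, as high as that between the Hk1 probes. These values are descriptions of 15 arrays that share slides and a common normalization.

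Gckr, a regulatory protein of sugar phosphorylation, was at 6.12 ± 0.46 in GK-S-30 and 6.19 ± 0.34 in GK-Sham-PF, and at 8.15 ± 0.25 in Wistar (SD, n = 5). It was 3.88-fold lower in GK-Sham-PF than in Wistar (log2 difference -1.96, SE 0.21, adjusted p = 1.573e-05) and 4.09-fold lower in GK-S-30 (adjusted p = 7.432e-06), with -0.07 between the GK groups (95% interval -0.53 to 0.38). Hkdc1, a related hexokinase domain protein whose probe was named through its gene ID, was 0.45 over Wistar in GK-S-30 (SE 0.12, adjusted p = 0.01642) and 0.28 over GK-Sham-PF, which did not pass (adjusted p = 0.2095).

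Of the 10 other sugar kinases and regulators tested, which include both, 2 fell from GK-Sham-PF to GK-S-30 and 0 rose, with a median log2 change of -0.06 against -0.03 over all probes tested. Among all 12561 named genes, each by its brightest tested probe, 8.16% passed in this comparison. Both belong to the use of fructose. Khk, which phosphorylates fructose at the first step of its use, was at 12.35 ± 0.42 in GK-S-30 and 13.30 ± 0.24 in GK-Sham-PF (SD, n = 5), a change of -0.95 (SE 0.19, adjusted p = 0.007638). Tkfc, which phosphorylates the triose that follows, changed by -0.92 (SE 0.19, adjusted p = 0.008163).

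Upstream of hexokinase, 2 of 7 hexose carriers rose over GK-Sham-PF and 0 fell (median -0.12), where 8.16% of all named genes passed. Slc2a1, which codes for the basal carrier GLUT1, was at 11.61 ± 0.67 in GK-S-30, 10.38 ± 0.10 in GK-Sham-PF and 10.39 ± 0.11 in Wistar (SD, n = 5). Its rise over GK-Sham-PF was 1.23 (SE 0.23, adjusted p = 0.005762). Slc2a4, the insulin-responsive GLUT4 of muscle and fat, rose by 0.65 (SE 0.17, adjusted p = 0.02886). The carriers of the absorbing cell did not pass: Slc5a1 (SGLT1) differed by -0.03, Slc2a5 (GLUT5) by -0.12 and Slc2a2 (GLUT2) by -0.62 (adjusted p = 0.1205).

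Of 7 genes that run against hexokinase and glycolysis, by making glucose-6-phosphate in gluconeogenesis or releasing glucose from it, 5 fell and 0 rose in the RL, with a median of -0.66. Over all named genes 8.16% passed in this comparison with GK-Sham-PF. G6pc1, the catalytic part of glucose-6-phosphatase, was at 9.71 ± 2.06 in GK-S-30 and 13.18 ± 0.59 in GK-Sham-PF (SD, n = 5), a change of -3.48 (SE 0.75, adjusted p = 0.01268) with a wide spread among the GK-S-30 rats, from 6.32 to 11.43. Its carrier Slc37a4 changed by -0.70 (SE 0.15, adjusted p = 0.0135), and Pck1, which opens gluconeogenesis, by -2.53 (SE 0.42, adjusted p = 0.002272). The fructose-bisphosphatases Fbp1 and Fbp2 changed by -0.66 (adjusted p = 0.0003758) and -0.29 (adjusted p = 0.02571). G6pc3 and Pck2 differed by 0.03 and under 0.01 in size, without passing.

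Among the genes at the branch points that use glucose-6-phosphate, 2 of 11 tested rose and 0 fell (median 0.16), against 8.16% of all named genes. Gfpt1, the entry to the hexosamine pathway, rose by 0.86 (SE 0.14, adjusted p = 0.001652), and Gyg1, the protein primer of glycogen, by 0.65 (SE 0.11, adjusted p = 0.002034). Of 18 genes of glycolysis below hexokinase, 2 rose and 0 fell (median 0.15), near the 8.16% of all named genes: Aldoc, an aldolase, by 0.86 (SE 0.18, adjusted p = 0.009811) and Pfkl, the liver-type phosphofructokinase, by 0.68 (SE 0.19, adjusted p = 0.04434, with 4 GK-Sham-PF arrays since an outlying spot was dropped). With scaling to the 75th percentile 6 of the 18 passed, all upward, where 2152 of 27892 probes tested passed. Without the dimmer arrays 6 passed, 5 upward and 1 downward, where 2651 of 28259 probes tested passed. The count near the share over all named genes is thus that of the main fit only.

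Of 9 mitochondrial partners of hexokinases 1 and 2 and kinases acting on their binding, 1 rose and 0 fell (median 0.08), again near the share over all named genes. It was Slc25a4, an ADP/ATP carrier typical of muscle, with 0.68 (SE 0.16, adjusted p = 0.01979), while the channel Vdac1, the docking site of hexokinase, differed by -0.14 (adjusted p = 0.5185). None of 9 transcription factors and signals known for their control of Hk2 passed at an adjusted limma p under 0.05, and 2 did at an unadjusted one (median 0.07), Hif1a differing by 0.07 and Myc by -0.39 (adjusted p = 0.3239). Between GK-Sham-PF and Wistar, 3 genes of these 7 lists passed, where 7.92% of all named genes did: Gckr, the glycolytic Eno2 (0.58, SE 0.13, adjusted p = 0.00884) and the regulator Srebf1 (-0.65, SE 0.17, adjusted p = 0.0312). Against Wistar, where 24.5% of all named genes passed, GK-S-30 had 2 carriers higher and 0 lower, 0 higher and 3 lower of the genes of gluconeogenesis and glucose release (Fbp1, Pck1 and Slc37a4), and 4 higher and 0 lower of those that use it. Among the glycolytic genes 4 were higher and 1 lower, of the other sugar kinases and regulators 1 and 4, of the mitochondrial partners 2 and 1, and of the Hk2 regulators 1 and 2. The shares of the glycolytic genes, mitochondrial partners and Hk2 regulators that passed are close to that of all named genes.

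**Figure D4:**
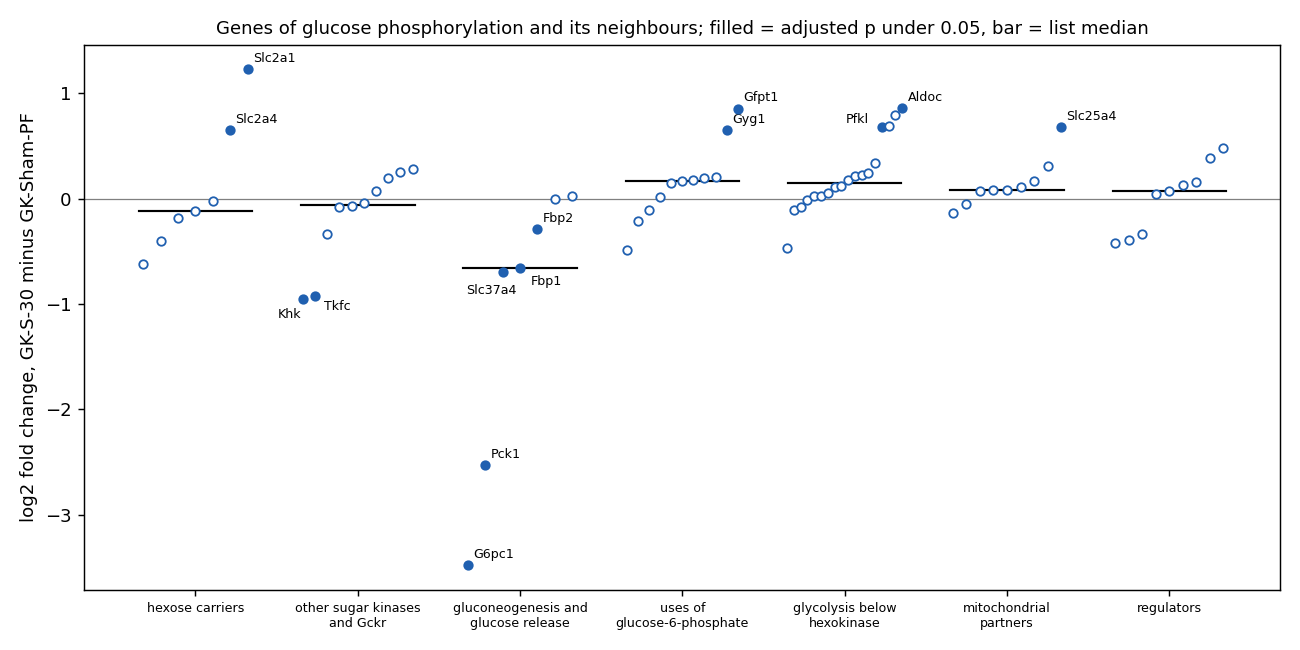
Log2 fold change in GK-S-30 over GK-Sham-PF (vertical axis) of the genes in 7 lists around hexokinase, each gene by its brightest tested probe, with filled points for an adjusted p under 0.05 and a bar at the median of each list. The filled points of the list of gluconeogenesis and glucose release lie below 0, down to -3.48 for G6pc1, and those of the hexose carriers, uses of glucose-6-phosphate, glycolysis and mitochondrial partners lie above it.

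The tissue carried the markers of its label. The summed signal of 11 enterocyte markers was 1097000 to 1296000 in GK-S-30, 1188000 to 1356000 in GK-Sham-PF and 1246000 to 1436000 in Wistar, and 0 of the 11 passed after RYGB against the sham operation by limma at an adjusted p under 0.05, and 0 at an unadjusted p under 0.05. Of 8 smooth muscle markers measured, 5 rose over GK-Sham-PF and 0 fell (median 1.33), with Actg2 at 2.35 and Des at 1.99. Their summed signal was 165000 to 211600 in GK-S-30, 47780 to 107900 in GK-Sham-PF and 60000 to 92820 in Wistar. In GK-S-30 replicates 1 to 5 it was 165000, 211000, 211600, 187100 and 198800. Hk1 was highest in replicates 1 and 2, whose sums were 165000, the lowest of the group, and 211000. Of 6 fibroblast markers 4 rose and 0 fell (median 0.57), where 8.16% of all named genes passed in this comparison. Of the other lists, 1 of 3 red cell and 1 of 4 endothelial markers rose, 1 of 8 neuronal and 1 of 4 pancreatic acinar markers fell, and 0 of 3 glial, 0 of 2 gastric and 0 of 5 cell cycle markers passed the limma test, where 2, 0 and 1 had an unadjusted p under 0.05. The part of smooth muscle or fibroblasts in the Hk1, Slc2a4 and Slc25a4 results was not tested.

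Beside Hk3, the summed signal of 12 neutrophil and macrophage markers was 7763 to 9483 in GK-S-30, 9427 to 11740 in GK-Sham-PF and 8704 to 13330 in Wistar. Of the 12, 1 fell and 0 rose from GK-Sham-PF to GK-S-30 (median -0.29), near the 8.16% of all named genes that passed. It was Fcer1g, an immunoglobulin receptor subunit, with -0.45 (adjusted p = 0.03223). Between GK-Sham-PF and Wistar, 3 of the 12 passed, where 7.92% of all named genes did. S100a8 and S100a9 were higher and Itgam lower, by -2.08 (limma adjusted p = 6.227e-06). S100a9 differed by 2.03 (adjusted p = 0.000911), and S100a8 was well above background on 1 of 5 Wistar arrays and on all 5 of GK-Sham-PF. Of 5 lymphocyte markers tested, Cd3d (-0.66) and Cd3e (-0.76) fell in GK-S-30. The part of white blood cells in the Hk3 values was not tested.

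The genes whose pattern over the 15 arrays was most like that of each isoform, by its brightest probe, were named as a description. For Hk1 at base 3570 these were Lrsam1 (r = 0.96), Lypd3 (0.95), Ppp2r3a (0.95), Pmm1 (0.94) and Klk1 (0.94), and with group means removed Pmm1 had the highest r of the 5, 0.92. For Hk2 they were Car4 (0.88), Plcd4 (0.87), Prodh (0.86), Ap1s1 (0.85) and Vps26b (0.85). For Hk3 they were Chst2 (0.87), Tfg (0.85), Stk16 (0.82), Pex19 (0.82) and Tmem126a (0.79). The values share arrays and slides, and among the tested probes of 12561 named genes high values of r occur in any series of 15 arrays.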

How the data were processed

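Intestinal RNA of 15 rats was read on Agilent 1-colour arrays with Feature Extraction (10.7.3.1 by the file headers). The intensity values that the authors deposited are processed signals, background-subtracted within each array and not normalized between arrays. The deposited series matrix holds log2 values that the authors had quantile-normalized. Control and outlier spots were left out, the spots of each probe averaged, and log2 processed signals quantile-normalized and fitted with limma 3.58.1 in R 4.3.3 (lmFit, contrasts.fit, eBayes) over all 15 arrays without covariates. A probe was tested where all arrays of some group had it well above background, and p-values were adjusted by Benjamini-Hochberg over all 27892, at 0.05. The sources do not say more of the rats' independence than 1 rat per array. The number of arrays limits the precision, with a standard error of 0.16 for the median probe's log2 fold change.

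Symbols came from a RefSeq table (GRCr8) for 21565 of 41012 probes, and positions from the files (rn4). List genes were represented by their brightest tested probe, and named if they passed in GK-S-30 over GK-Sham-PF or were Hkdc1 or Gckr. A result for 1 further gene of the rule is not reported here. Other named list genes were chosen after their values were seen. Members and lists were chosen with earlier results of these data known. The procedure was tested on simulated data. Alternatives were scaling, background correction (normexp with an offset of 50), the series matrix, filters, blocks, Tukey's comparison and leaving out arrays. A comparison of the proteins was not made here.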

Additional observations from a re-analysis of the deposited data

Results flagged for a closer look

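The Hk1 probe at base 2686 was at 4.97 in Wistar replicate 3, far below the nearest of the other Wistar arrays at 5.84, a gap of 0.76 of the range of the group against a critical value of 0.71 for 5 samples. Chance gives such a gap in about 1 group in 20, and 12 groups of values were looked at. The array was 1 of the 2 dimmer ones before normalization, and the part of its brightness in this value was not tested. Hk1 at base 3570 was 9.02 on the same array, the highest of the Wistar arrays. The other dimmer array, GK-Sham-PF replicate 5, fell just short of a flag at the probe at base 2686. It was at 4.99 against 5.78 for the nearest of its group, a gap of 0.7097 of the range.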

How the results depend on the processing

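The rise of Hk1 at base 3570 over GK-Sham-PF kept its direction and its call under every alternative tested, from 0.71 to 1.11, and from 0.75 to 0.93 without single arrays. Slides hold few arrays and at most 2 groups each, no slide held GK-S-30 with Wistar, and probes near background such as Hk2 depend most on the background correction. With the slide as a fixed block, GK-S-30 is compared with GK-Sham-PF on slide C alone. With Wistar it is compared only through slides B and C, where slide B held 1 Wistar array. No label tied a rat to another beyond the replicate number. Correlations of the deviations of same-numbered arrays ran from -0.28 to 0.19, with 2 of 15 over 0.1. Such correlations cannot show whether rats were related or housed together. With the replicate block, 1211 probes passed in GK-S-30 over GK-Sham-PF instead of 1869, and Hk2 against Wistar was not called (0.72, adjusted p = 0.05938). The protein comparison was not run.

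With the slide as a fixed block, 382 probes passed in GK-S-30 over GK-Sham-PF, 414 in GK-Sham-PF over Wistar and 454 in GK-S-30 over Wistar, where 1869, 2184 and 6352 had passed. Against Wistar the calls of Hk1 at bases 2686 and 3570 and of Hk2 were then lost, at 1.74, 0.95 and 1.08 (adjusted p = 0.1583, 0.09432 and 0.46). Named genes only, by their brightest probe, gave 1234, 1094 and 3294 calls in the same order, from fewer probes tested. Tukey's comparison gave 3859 and 3770 for the first and second pair unadjusted, and 763, 1380 and 4163 after Benjamini-Hochberg adjustment. Unadjusted, it called Hk1 at base 2686 over GK-Sham-PF (0.83) and Hk3 in GK-Sham-PF over Wistar (0.55). After adjustment it lost Hk1 at base 2686 (0.89) and Hk2 (0.72) against Wistar.

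The Hk2 call against Wistar was also lost with scaling to the 75th percentile (0.64), normexp background correction (0.26), no filter on dim probes (0.72) and only the 2 groups compared (0.72). Within slide C, Hk1 at base 2686 differed by 1.59 after RYGB against the sham operation, and its change exceeded those of Hk1 at base 3570, Hk2 and Hk3 by 0.48, 0.87 and 1.85.

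For differences in change between probes, the side of the threshold is that of the unadjusted exact permutation p. With normexp, 2 differences in change over GK-Sham-PF passed that had not: between the Hk1 probes (-0.30) and between Hk1 at base 3570 and Hk2 (0.50). Against Wistar, the difference between the Hk1 probes turned to -0.19, Hk1 at base 3570 minus Hk2 passed at 0.37, and Hk1 at base 3570 minus Hk3 passed at 0.57, as it did with the 75th percentile at 0.67. Normexp was run with an offset of 50, added to every signal. Without normexp, group geometric means were 32 to 53 for Hk2 and 53 to 99 at base 2686. They were 431 to 779 at base 3570. An offset shrinks log2 changes of dim probes more than those of bright ones. The normexp differences between these probes therefore cannot show that Hk1 and Hk2, or the Hk1 probes, changed unequally. Without normexp, the 2 differences over GK-Sham-PF were -0.02 and 0.33.

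Without both dimmer arrays, an alternative chosen after seeing the data, Hk1 at base 3570 minus Hk3 no longer passed between GK-Sham-PF and Wistar (-0.46). Against Wistar, Hk1 at base 2686 minus Hk1 at base 3570 (-0.077), Hk1 at base 2686 minus Hk2 (-0.16) and Hk1 at base 3570 minus Hk2 (-0.084) turned, while Hk1 at base 3570 minus Hk3 (0.77) and Hk2 minus Hk3 (0.85) passed. Of glycolysis below hexokinase, 6 genes passed over GK-Sham-PF in place of 2, as with the 75th percentile (6). Over all probes tested, 2651 of 28259 passed without both dimmer arrays and 2152 of 27892 with the 75th percentile. The cause of these moves was not tested.

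Leaving out single arrays gave 1194 to 2367 calls over GK-Sham-PF, falling to 1194 without GK-Sham-PF replicate 1 and 1238 without replicate 2. Hk1 at base 2686 ranged from 0.63 to 0.96 over GK-Sham-PF, from -0.13 to 0.26 in GK-Sham-PF over Wistar, where it turned without Wistar replicate 3 or GK-Sham-PF replicate 1 or 3, and from 0.70 to 1.02 in GK-S-30 over Wistar. Hk2 over Wistar ranged from 0.54 to 0.86 and Hk3 in GK-Sham-PF over Wistar from 0.41 to 0.74. For differences in change over GK-Sham-PF, the Hk1 probes ranged from -0.23 to 0.10. In GK-Sham-PF over Wistar the ranges were -0.054 to 0.38 for the Hk1 probes, -0.47 to 0.067 and -0.65 to -0.26 for Hk1 at base 2686 minus Hk2 and minus Hk3, and -0.91 to -0.49 for Hk1 at base 3570 minus Hk3, whose call was lost without any one of 8 of 10 arrays. In GK-S-30 over Wistar they were -0.077 to 0.24 for the Hk1 probes, -0.16 to 0.37 and -0.21 to 0.20 for Hk1 at bases 2686 and 3570 minus Hk2, 0.35 to 0.77 for Hk1 at base 3570 minus Hk3 and 0.38 to 0.85 for Hk2 minus Hk3. The 2 differences of Hk1 over Hk3 after RYGB stayed under the unadjusted threshold without any single array. Whether they would pass the adjustment over all tests without an array was not checked.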
